A study of Sus scrofa with 3 samples.

Results

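The core genes of insulin signalling were followed in visceral adipose tissue of male Wuzhishan miniature pigs, a small Chinese breed. Of 9 genes taken as the core of the pathway (INSR, IRS1, IRS2, PIK3R1, PIK3CA, AKT1, AKT2, FOXO1 and TBC1D4), the 6 genes INSR, IRS1, PIK3CA, AKT2, TBC1D4 and FOXO1 had a row under their own symbol, out of 22826 mRNA genes and 34570 genes of any type. All pigs were 6 to 7 months old when obtained and, after a period of acclimation on standard feed, received feed rich in fat and cholesterol (HFC) for 12 weeks, so they were older at sampling. The IM group was intact, the CM group was castrated, and the CMT group was castrated and given testosterone propionate at 10 mg/kg each week. Equal amounts of RNA from 4 to 6 pigs by the sample labels, or 4 by the paper, made up the pool of each group. Each pool was sequenced on an Ion Proton instrument as 1 library per group. With 3 libraries and no replicates, the differences below are between pools. These libraries give no check against the variation between pigs. The comparisons address how castration (CM versus IM) and testosterone replacement (CMT versus CM) relate to expression in visceral fat under this diet.

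Insulin binds the insulin receptor, encoded by INSR, a tyrosine kinase that phosphorylates insulin receptor substrates such as IRS1. The substrates recruit phosphoinositide 3-kinase (PI3K), a pair of a catalytic subunit such as p110 alpha (PIK3CA) and a regulatory subunit such as p85 alpha (PIK3R1), and the lipid it makes leads to activation of the kinase AKT. In fat cells AKT2 phosphorylates TBC1D4 (AS160), which releases the glucose transporter GLUT4 to the cell surface, and AKT keeps the transcription factor FOXO1 out of the nucleus. These steps act through phosphorylation, which RNA-Seq does not measure.

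Expression was given in UQRPKM, reads per kilobase of gene scaled to the upper quartile of each library, so levels of different genes are compared per length. The recovered whole reads on mRNA genes numbered 14844063, 13582288 and 13449107 in IM, CM and CMT, respectively. All intervals are exact 95% intervals from these reads and cover counting error only. The tissue label fitted its markers, since all 7 adipocyte markers with a row were above 0 in every library and their summed level was 136950.3, 128931.8 and 111794.6 UQRPKM in IM, CM and CMT. The CM and CMT libraries stood apart in markers of other tissues. A list of 13 liver genes summed to 2559.8, 10154.3 and 1736.6 UQRPKM, and to 20.61, 7815.6 and 22.37 UQRPKM without APOA1, with 5, 0 and 6 of the 13 genes at 0 in IM, CM and CMT. A list of 9 skeletal muscle genes summed to 82.32, 68.28 and 6130.3 UQRPKM, with CKM at 0 in every library. The source of these liver and muscle transcripts and their part in the values of the insulin signalling genes were not tested, and each comparison includes CM or CMT, so none can be given without these libraries.

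IRS2, AKT1 and PIK3R1 had no row under their symbols. For IRS2, an insulin receptor substrate, and AKT1, the AKT form most linked to growth, no row carried the RefSeq gene ID either, and neither is analysed here. The ID of PIK3R1 is carried by the row LOC100623707. A further row, LOC100736563, is described as PIK3R1-like in a supplementary list of changed genes, so its own change was known when it was picked. Both rows are reported apart from the 6 genes, and reads of such near copies may have been divided between them.

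AKT2 was by far the most abundant of the genes in every library. Its level reached 2131.5 UQRPKM in IM (interval 2091.6 to 2172.0), against 2680.8 for CM (2635.0 to 2727.3) and 1646.6 for CMT (1611.2 to 1682.5). These levels ranked 435, 337 and 510 among mRNA genes, and AKT2 made up 71.7%, 81.2% and 67.7% of the summed UQRPKM of the 6 genes. FOXO1 came next, and AKT2 stood 5.137, 10.13 and 4.603 times above it in IM, CM and CMT. INSR and TBC1D4 followed at like levels, with overlapping intervals in every library. IRS1 came after them and PIK3CA was the lowest, and apart from INSR and TBC1D4 no neighbours in this order had overlapping intervals. The highest gene exceeded the lowest by 58.15, 65.34 and 45.11 times. The median level of the 6 genes was 158, 123.1 and 156.7 UQRPKM, against 50.49, 50.63 and 49.82 UQRPKM for all mRNA genes above 0.

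**Figure D1:**
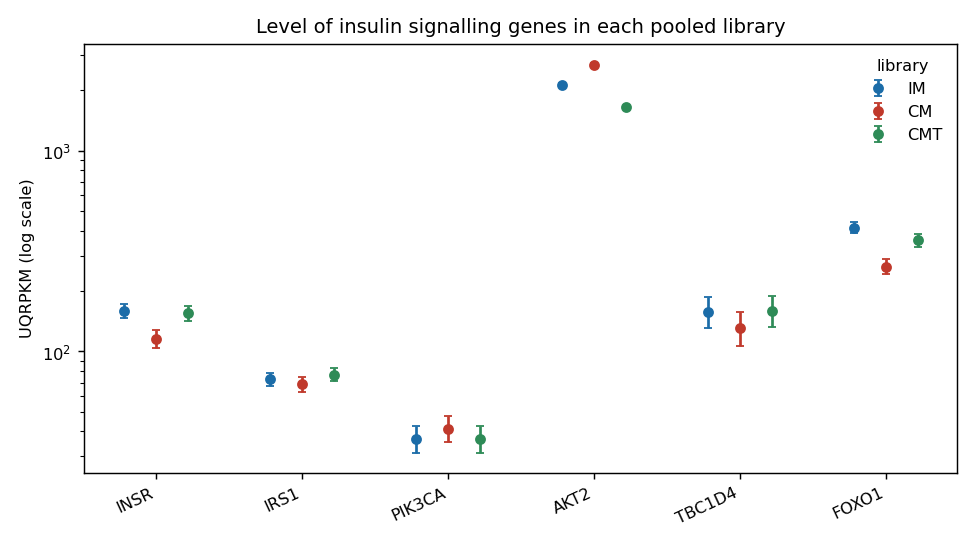
Level of each insulin signalling gene in UQRPKM (log scale) in the pooled IM, CM and CMT libraries, with exact 95% Poisson intervals of the reads as bars. AKT2 lies between 1646.6 and 2680.8 UQRPKM, above all other genes, and PIK3CA is lowest, between 36.5 and 41.03 UQRPKM.

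In CM versus IM, FOXO1 was 1.57-fold lower and was the only 1 of the 6 genes to differ by at least 1.5-fold with 1 UQRPKM or more in both libraries. INSR was lower as well and AKT2 was higher, by less than this fold. In CMT versus CM, AKT2 was 1.63-fold lower and was again the only 1 of 6 past the threshold, while INSR and FOXO1 were higher by less. In CMT versus IM none of the 6 reached the threshold. Fewer cells of a type and less RNA per cell cannot be told apart in such bulk samples.

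Differences of this size were common among all mRNA genes. In CM versus IM, 8.38% of 14123 mRNA genes were at least 1.5-fold higher and 10.4% lower, beside 0 and 1 of the 6 insulin signalling genes. In CMT versus CM, 9.53% of 14098 were higher and 9.97% lower, beside 0 and 1 of 6, and in CMT versus IM the shares were 8.81% and 11.9% of 14151, beside 0 and 0 of 6. By the interval of the log2 ratio, 1 gene was higher and 2 were lower in CM versus IM, where 15.6% and 26.6% of all genes were. In CMT versus CM 3 genes were higher and 1 was lower, against 17.3% and 21.1%, and in CMT versus IM 0 were higher and 2 were lower, against 15% and 29.5%. An interval is narrower for a gene with more reads. Neither these shares nor those at 1.5-fold were matched for read number. The median log2 ratio of the 6 genes was -0.18 in CM versus IM, where that of all genes was -0.06. It was 0.22 in CMT versus CM (all genes -0.02) and -0.02 in CMT versus IM (all genes -0.08). CM held the lowest level of 4 genes (INSR, IRS1, TBC1D4 and FOXO1) and the highest of the other two, AKT2 and PIK3CA, while it was lowest for 33.5% and highest for 29.1% of 13858 mRNA genes. The CM library enters both of the first comparisons, so a low value in CM gives a lower level in the one and a higher level in the other.

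**Figure D2:**
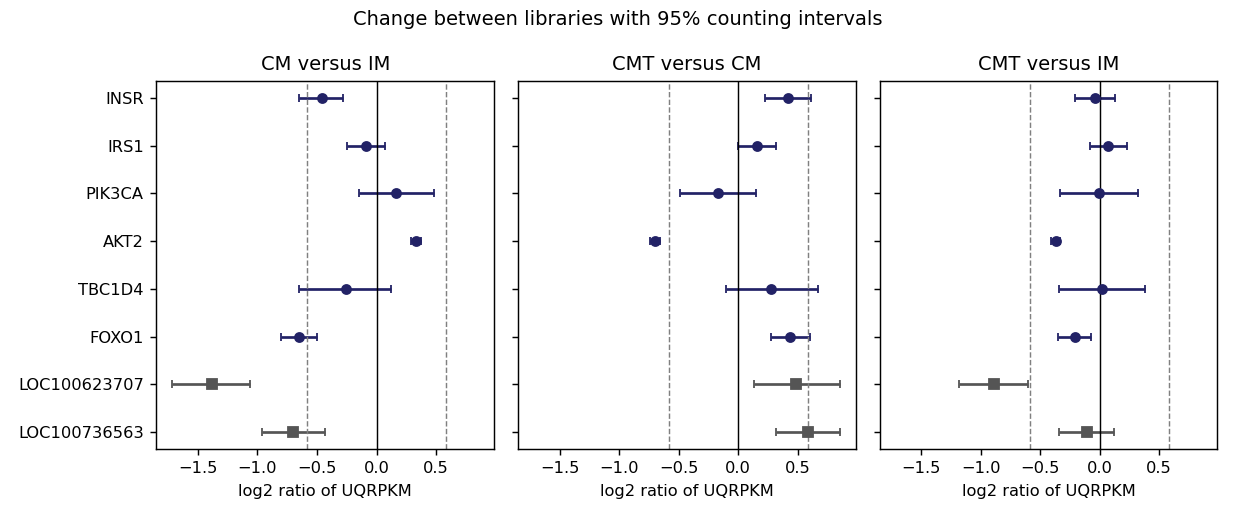
Log2 ratio of UQRPKM of each gene for each pair of libraries, with exact 95% intervals of the reads as bars. Dashed lines mark 1.5-fold, and squares are the rows assigned to PIK3R1. FOXO1 lies past the lower line in CM versus IM (-0.65) and AKT2 in CMT versus CM (-0.70).

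**Figure D3:**
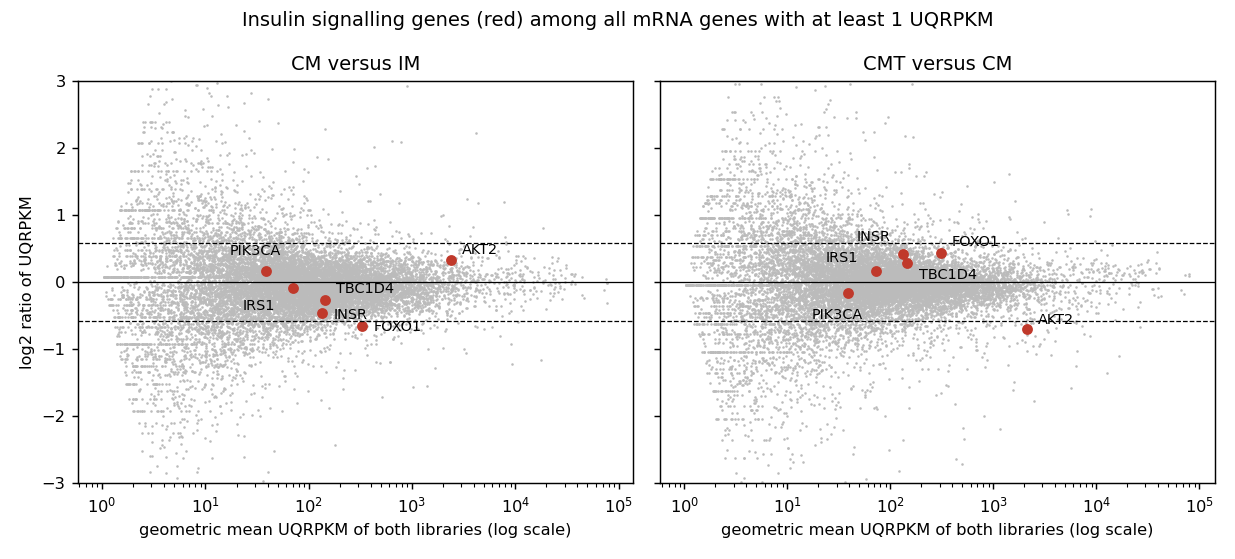
Log2 ratio against the geometric mean UQRPKM (log scale) for 14123 mRNA genes (CM versus IM) and 14098 mRNA genes (CMT versus CM), with the insulin signalling genes in red and dashed lines at 1.5-fold. The 61 and 83 genes beyond a log2 ratio of 3 in either direction are not drawn. All red points except FOXO1 (left) and AKT2 (right) lie between the lines.

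At the receptor, INSR was at 159.3 UQRPKM in IM (577 reads), against 115.6 for CM (399 reads) and 154.7 for CMT (549 reads). The CM library was low, and its interval (104.5 to 127.5) did not overlap those of IM (146.6 to 172.8) and CMT (142 to 168.2). The log2 ratio was -0.46 (-0.65 to -0.28) in CM versus IM, 0.42 (0.23 to 0.61) in CMT versus CM and -0.04 (-0.21 to 0.13) in CMT versus IM. INSRR, a receptor of the same family that does not bind insulin, was near the bottom of the expressed genes, at 3.404, 2.598 and 1.895 UQRPKM on 22, 16 and 12 reads.

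IRS1, the docking protein that carries the signal from the receptor to PI3K, varied least together with PIK3CA. It stood at 72.78 UQRPKM for IM, 68.51 for CM and 76.6 for CMT, and the intervals of all libraries overlapped. The log2 ratio was -0.09 (-0.25 to 0.07) in CM versus IM and 0.16 (0.00 to 0.32) in CMT versus CM, where the lower bound lay just above 0. It was 0.07 (-0.08 to 0.23) in CMT versus IM. GRB10, an adaptor that binds the activated receptor and dampens its signal, moved more, with 607.9, 335.1 and 617.7 UQRPKM in IM, CM and CMT. Its log2 ratio was -0.86 (-0.97 to -0.75) in CM versus IM and 0.88 (0.78 to 0.99) in CMT versus CM, so that, like INSR, it was low in CM.

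PIK3CA, the catalytic subunit, differed by no more than its counting error. It stood at 36.66 UQRPKM for IM (165 reads), 41.03 for CM (176 reads) and 36.5 for CMT (161 reads), with a log2 ratio of 0.16 (-0.15 to 0.48) in CM versus IM and -0.17 (-0.49 to 0.15) in CMT versus CM. At this depth, changes smaller than these intervals could not be seen. PIK3CB, another catalytic subunit, was at 34.04, 33.81 and 29.96 UQRPKM, and the log2 ratios of PIK3CA, PIK3CB and PIK3CD lay between -0.02 and 0.16 in CM versus IM and between -0.30 and -0.17 in CMT versus CM, all with intervals that held 0.

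Of 5 regulatory rows, 4 were lowest in CM, as were 33.5% of 13858 mRNA genes. LOC100623707, the row with the ID of PIK3R1, was at 34.54 UQRPKM for IM (293 reads), 13.23 for CM (107 reads) and 18.64 for CMT (155 reads). It was 2.61-fold lower in CM versus IM (log2 ratio -1.38, -1.72 to -1.06), higher in CMT versus CM (0.49, 0.13 to 0.86) and 1.85-fold lower in CMT versus IM (-0.89, -1.18 to -0.60). LOC100736563 was at 82.2, 50.75 and 76.22 UQRPKM, with a log2 ratio of -0.70 (-0.96 to -0.43) in CM versus IM and 0.59 (0.32 to 0.86) in CMT versus CM. Both rows were thus lowest in CM, and only the first remained below IM in CMT by more than its interval.

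PIK3R3, which encodes p55 gamma, was at 112.5, 54.92 and 66.22 UQRPKM, 2.05-fold lower in CM versus IM (log2 ratio -1.03, -1.22 to -0.85). PIK3R2, which encodes p85 beta, was at 140, 118.2 and 140.1 UQRPKM, with a log2 ratio of -0.24 (-0.40 to -0.09) in CM versus IM. These 4 of 5 regulatory rows had intervals below 0 in CM versus IM and above 0 in CMT versus CM, where their log2 ratios ran from 0.24 to 0.59. Of all mRNA genes, not matched for read number, 26.6% had intervals below 0 in CM versus IM and 17.3% above 0 in CMT versus CM. LOC100736563 was picked with its change known, and both comparisons share the CM library. PIK3R5, which encodes p101, the partner of the PIK3CG product, was named after its values were seen and went another way, with 34.04, 31.14 and 23.16 UQRPKM and its lowest level in CMT. Its log2 ratio was -0.13 (-0.41 to 0.15) in CM versus IM and -0.43 (-0.74 to -0.12) in CMT versus CM. The ratio of PIK3R1 (LOC100623707) to PIK3CA within a library does not depend on scaling. Per length it was 0.9421 for IM, 0.3226 for CM and 0.5108 for CMT, a log2 change of -1.55 (-2.01 to -1.09) in CM versus IM, 0.66 (0.17 to 1.15) in CMT versus CM and -0.88 (-1.32 to -0.45) in CMT versus IM. With the reads of both PIK3R1 rows summed, a choice made after seeing the data, the changes were -1.14 (-1.52 to -0.77), 0.72 (0.34 to 1.11) and -0.42 (-0.79 to -0.05).

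**Figure D4:**
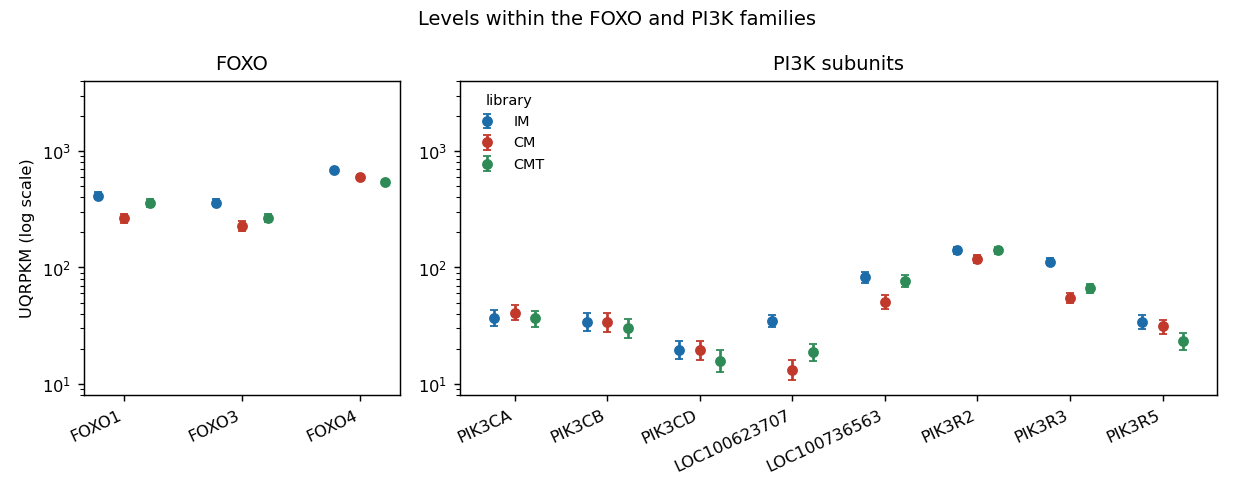
UQRPKM (log scale) of the FOXO and PI3K subunit genes in IM, CM and CMT, with exact 95% Poisson intervals as bars. LOC100623707 and LOC100736563 are the rows assigned to PIK3R1. LOC100623707, LOC100736563, PIK3R2 and PIK3R3 are lowest in CM and PIK3R5 in CMT, while the intervals of each catalytic gene (PIK3CA, PIK3CB and PIK3CD) overlap in all libraries.

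AKT2, the AKT form most tied to glucose uptake, was highest in CM (13023 reads) and lowest in CMT (8224 reads), with IM between (10865 reads). None of its intervals overlapped. The log2 ratio was 0.33 (0.29 to 0.37) in CM versus IM, -0.70 (-0.74 to -0.66) in CMT versus CM and -0.37 (-0.41 to -0.33) in CMT versus IM. The last value depended on scaling, which these intervals do not cover. It was -0.13 with libraries scaled to the adipocyte markers.

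The 7 adipocyte markers had a median log2 ratio of -0.15 in CMT versus CM. They ran from -0.57 for PLIN1, the coat protein of lipid droplets, and -0.47 for LIPE, a lipase, to -0.03 (-0.12 to 0.05) for PPARG, the master regulator of fat cell formation, and 0.07 (0.04 to 0.11) for PNPLA2, the first lipase of triglyceride breakdown. The part of these differences in the lower AKT2 was not tested. With libraries scaled to the adipocyte markers, an alternative added after seeing the data, AKT2 was at -0.55 in CMT versus CM and no longer reached 1.5-fold, while FOXO1 reached it at 0.59. PDPK1, the kinase that phosphorylates AKT at the membrane, was at 64.6, 71.23 and 69.83 UQRPKM, with a log2 ratio of 0.14 (-0.23 to 0.52) in CM versus IM and -0.03 (-0.40 to 0.34) in CMT versus CM. PHLPP1, a phosphatase of AKT, was at 101.5, 58.65 and 67.82 UQRPKM and was lower in CM versus IM (-0.79, -0.98 to -0.61).

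TBC1D4, the substrate of AKT that holds back GLUT4 vesicles, was at 156.7 UQRPKM for IM, 130.6 for CM and 158.7 for CMT, on 131, 104 and 130 recovered reads. Its intervals overlapped in all libraries, with a log2 ratio of -0.26 (-0.65 to 0.12) in CM versus IM, 0.28 (-0.10 to 0.67) in CMT versus CM and 0.02 (-0.34 to 0.38) in CMT versus IM. Its reads were recovered at the shortest length that gave whole numbers (561 bases) and may be too low by a common factor, which would make these intervals too wide. SLC2A4, which encodes GLUT4 itself, was at 160.8, 267.7 and 119.5 UQRPKM in IM, CM and CMT. It was higher in CM versus IM (log2 ratio 0.74, 0.58 to 0.89) and 2.24-fold lower in CMT versus CM (log2 ratio -1.16, fold interval 1.99 to 2.52), so that, like AKT2, it was highest in CM and lowest in CMT. RHOQ (TC10), a small GTPase of GLUT4 vesicle traffic, was at 171.3, 256.5 and 133.3 UQRPKM, with a log2 ratio of -0.94 (-1.12 to -0.77) in CMT versus CM.

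FOXO1, the transcription factor held in check by AKT, was highest in IM at 414.9 UQRPKM (915 reads), lowest in CM at 264.6 (556 reads) and between at 357.7 in CMT (773 reads). The interval of CM (243 to 287.5) lay below those of IM (388.5 to 442.7) and CMT (333 to 383.9), which did not overlap each other either. The log2 ratio was -0.65 (-0.80 to -0.50) in CM versus IM, 0.44 (0.28 to 0.60) in CMT versus CM and -0.21 (-0.35 to -0.07) in CMT versus IM, the last of which was 0.03 with libraries scaled to the adipocyte markers. FOXO3, a factor of the same family, was low in CM as well, at 361.2, 226.9 and 266.1 UQRPKM, so that the ratio of FOXO1 to FOXO3 changed by 0.02 (-0.21 to 0.25) on the log2 scale in CM versus IM. FOXO4 differed less, at 682.4, 598.5 and 545.6 UQRPKM, and the ratio of FOXO1 to FOXO4 changed by -0.46 (-0.63 to -0.29) in CM versus IM and 0.57 (0.39 to 0.75) in CMT versus CM.

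AKT2 and FOXO1 thus differed between libraries in opposite directions in the comparisons that include CM. The log2 ratio of AKT2 to FOXO1 changed by 0.98 (0.82 to 1.14) in CM versus IM, by -1.14 (-1.30 to -0.97) in CMT versus CM and by -0.16 (-0.30 to -0.01) in CMT versus IM. These values do not depend on how the libraries were scaled. The ratio of AKT2 to FOXO1 was added after seeing the data. Its changes of 0.98 and -1.14 restate the opposite directions already seen and are no separate test. They also share the CM library.

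Among the partners and targets of FOXO1, CREBBP, an acetyltransferase that acts as coactivator, was at 19.96, 5.811 and 19.19 UQRPKM (155, 43 and 146 reads). It was lower in CM versus IM (log2 ratio -1.78, -2.30 to -1.28) and higher in CMT versus CM (1.72, 1.22 to 2.25). SIRT1, a deacetylase of FOXO factors, was at 52.95, 72.6 and 83.54 UQRPKM and was higher in CMT versus IM (0.66, 0.37 to 0.95). PCK1, which encodes an enzyme of glyceride glycerol synthesis in fat and is a known FOXO1 target, was at 5401.8, 3377.3 and 5325.6 UQRPKM. Like FOXO1 it was low in CM, with a log2 ratio of -0.68 (-0.71 to -0.65) in CM versus IM and 0.66 (0.62 to 0.69) in CMT versus CM. For PCK1 the paper also reports a decrease in CM and an increase in CMT by quantitative RT-PCR. That assay used the RNA samples that went into sequencing, and PCK1 was selected for it from the RNA-Seq profiles. It is thus no check on other pigs. A list of 12 FOXO targets had 11 with a row. KLF15 was at 0 in every library. IGFBP1 was at 0, 17.67 and 0 UQRPKM in IM, CM and CMT, on 0, 7 and 0 reads, and neither gene was compared. Of the 9 FOXO targets with at least 1 UQRPKM in both libraries, PCK1 alone passed 1.5-fold in either comparison. Of all mRNA genes, 10.4% were at least 1.5-fold lower in CM versus IM and 9.53% higher in CMT versus CM. The list median was -0.26 in CM versus IM (all genes -0.06) and 0.12 for CMT versus CM (all genes -0.02). In CM versus IM, 7 of the 9 had a log2 ratio below 0 and 2, SESN1 (0.27) and SESN3 (0.29), were above 0.

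The wider pathway was described by 115 other genes in 12 lists, of which 102 had a row. In CM versus IM, 3 were at least 1.5-fold higher and 9 lower of 95 genes with 1 UQRPKM or more in both libraries (8.38% and 10.4% of all mRNA genes), with a median log2 ratio of -0.08. In CMT versus CM, 4 were higher and 11 lower of 96 (9.53% and 9.97% of all genes), with a median of -0.06. In CMT versus IM 4 were higher and 4 lower of 96 (8.81% and 11.9% of all genes), with a median of -0.14. These medians lay close to those of all mRNA genes. The GLUT4 list had 1 gene higher of 14 in CM versus IM, SLC2A4, where 8.38% of all genes were higher, and 2 lower of 14 in CMT versus CM, SLC2A4 and RHOQ, where 9.97% of all genes were lower. The kinases acting on AKT and the mTORC1 branch had 0 genes past the threshold in any comparison.

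Of 10 listed lipid genes that insulin raises, 7 had a row, and SREBF1 among them was at 0 in every library. The 6 genes compared were all lower in CMT than in CM and IM, by differing amounts. FASN differed little, at 10283.4, 9236.4 and 8275.8 UQRPKM in IM, CM and CMT (log2 ratio -0.16, -0.18 to -0.14, in CMT versus CM). In CMT versus CM, 5 of 6 were at least 1.5-fold lower with a list median of -0.76, beside 9.97% and -0.02 for all mRNA genes, while in CM versus IM 1 of 6, ACLY, was lower and the median was 0.20, beside 10.4% and -0.06 for all genes. ACLY, SCD and HK2 stayed past the threshold in CMT versus CM under every scaling tried, whereas ACACA did not, and 3 genes were left with total reads or adipocyte markers as the scale. SCD, which makes monounsaturated fatty acids, was at 7188.1, 9908.5 and 3308.2 UQRPKM in IM, CM and CMT, a log2 ratio of -1.58 (-1.60 to -1.56) in CMT versus CM. ACLY, which supplies acetyl-CoA for lipid synthesis, was at 6272.4, 3879.3 and 2007.3 UQRPKM and was lower in both castrated groups, with log2 ratios of -0.69 (-0.73 to -0.66) in CM versus IM and -1.64 (-1.69 to -1.60) in CMT versus IM. ACACA, the enzyme of malonyl-CoA synthesis, was at 1507.4, 1466.5 and 961.8 UQRPKM. HK2, a hexokinase of glucose use, was at 246.3, 333 and 180.8 UQRPKM, and like AKT2, SLC2A4 and SCD it was highest in CM and lowest in CMT.

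**Figure D5:**
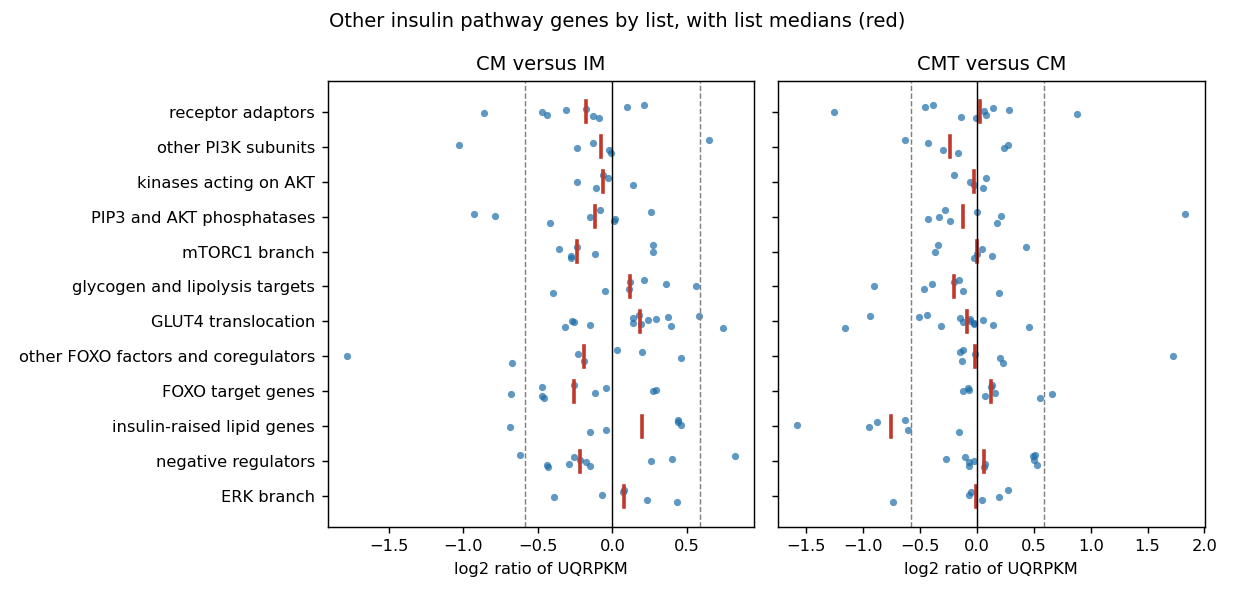
Log2 ratio of UQRPKM of the other insulin pathway genes (left, CM versus IM; right, CMT versus CM), 1 point per gene with at least 1 UQRPKM in both libraries, by list, with list medians in red and dashed lines at 1.5-fold. The median of the insulin-raised lipid genes is -0.76 in CMT versus CM, and the other medians there lie between -0.23 and 0.12.

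The glycogen and feedback branches held few further differences of at least 1.5-fold. Smaller differences with intervals that left out 0 were present in both. PPP1R3C, which targets a phosphatase to glycogen, was at 43.97, 64.76 and 34.38 UQRPKM, with a log2 ratio of -0.91 (-1.23 to -0.60) in CMT versus CM. PDE3B, through which insulin restrains lipolysis, was at 247.8, 269.7 and 234.6 UQRPKM, with a log2 ratio of 0.12 (0.02 to 0.22) in CM versus IM and -0.20 (-0.30 to -0.10) in CMT versus CM. Of the protein kinase C forms that can dampen insulin signalling, PRKCE was lower in CM versus IM (-0.62, -1.02 to -0.22). PRKCQ rested on only 16, 27 and 39 reads and had a log2 ratio of 1.31 (0.44 to 2.25) in CMT versus IM. PIK3CG, a catalytic subunit used mostly by blood cells, was 1.5-fold or more higher in CM versus IM, but on 30 and 45 reads its interval held 0 (0.65, -0.04 to 1.37).

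Likeness of pattern was measured over 3 libraries as the distance between pairs of log2 ratios (CM versus IM and CMT versus IM). Each gene was compared with mRNA genes of at least 200 reads in every library. PIK3CA, TBC1D4, LOC100623707 and LOC100736563 did not reach 200 reads in every library themselves. For every gene here but AKT2, the intervals reach further than 0.1 from the ratios, so the neighbours are within counting error. AKT2 had few near neighbours, with 18 of 6712 genes (0.268%) within 0.1, the nearest being PHYHD1, LOC100516841 and ABHD6. FOXO1 had 31 (0.462%), led by PHF8, LOC100525869 and PLXNB1, and INSR had 57 (0.849%), led by FZR1, CHD1 and PHF21A. The genes that varied less had many, with 408 (6.08%) for IRS1, nearest LOC100524144, CBLB and ZNF511, 348 (5.18%) for PIK3CA, nearest SEC23A and LOC102157777, and 231 (3.44%) for TBC1D4, nearest PRCP, PXDC1 and AMACR. LOC100623707 had 0 genes within 0.1, and its nearest, NRIP3, lay at a distance of 0.301. For LOC100736563 there were 15 (0.223%), led by TUBA8, MTR and SIPA1L2. With 3 libraries a likeness of this kind is a description of these pools only.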

How the data were processed

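Total RNA of visceral adipose tissue was pooled per group by the authors and sequenced on Ion Proton, and reads were mapped to Sscrofa10.2 with MapSplice. The counting tool and annotation are not given in the sources used here. The authors deposited RPKM values scaled to the upper quartile of each library (UQRPKM), 1 library per group. Groups follow the sample labels.

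Whole reads were recovered from the deposited RPKM values with upper quartiles of 149, 142 and 146 for IM, CM and CMT, at the shortest gene length giving whole reads in all libraries within a relative error of 1e-08. This held for 100% of 20838 genes above 0. Where all reads of a gene share a factor, the recovered reads are too few and the intervals too wide. Recovered reads on all genes numbered 16611931, 15561124 and 15106608.

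A gene passed at 1.5-fold or more if neither library was below 1 UQRPKM, the thresholds of the study without its test. Log2 ratios used no pseudocount. Intervals were exact Poisson for levels, Clopper-Pearson for log2 ratios, and exact conditional for ratios of gene pairs. Without replicates no p-values were computed. The planned AKT2 to AKT1 and IRS2 to IRS1 ratios could not be computed, and ratios of FOXO1 to FOXO3, FOXO4 and AKT2 were added after seeing the data.

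All 6 genes are named. Of each list, genes past 1.5-fold with at least 50 reads over a pair of libraries were named, at most 4 a list, plus SLC2A4, PDPK1, PDE3B, PIK3CB and PIK3R2, and some genes that this rule also takes are not reported here. FOXO4, PIK3CD, PIK3R5 and INSRR were added to complete their families. SESN1, SESN3, IGFBP1, KLF15, FASN and SREBF1 were named outside this rule. The genes, lists and markers were chosen with earlier results of these data known. Marker lists of macrophages, lymphocytes, endothelium, mesothelium and red cells summed to 4561.0, 411, 6853.1, 120.8 and 4591.7 UQRPKM in IM, 4056.4, 318.4, 6036.4, 205.1 and 4238.1 in CM, and 3792.5, 344.7, 6691.6, 494.6 and 2363.4 in CMT. Gene positions are not used here, since the gene table at hand describes another build. Calculations used Python 3.11.15, numpy 2.4.6, scipy 1.17.1, pandas 2.3.3 and matplotlib 3.10.9 and were tested on simulated data.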

Additional observations from a re-analysis of the deposited data

How the results depend on the processing

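No paired analysis was possible because each group is 1 pooled library, and for the same reason no library could be left out within a group. The number of genes past the threshold was set by the fold asked for. At a log2 ratio of 0.32 or more in either direction, 3 of 6 genes passed in CM versus IM, 3 for CMT versus CM and 1 for CMT versus IM. At 2-fold, 0 passed in CM versus IM and 0 for CMT versus CM. Other scalings (total UQRPKM, total reads, median ratio) added 0.02 to 0.11 to every log2 ratio, most for total reads in CMT versus IM (0.11), and FOXO1 in CM versus IM (-0.59 at the nearest) and AKT2 in CMT versus CM (-0.65 at the nearest) still passed. Under the scaling to adipocyte markers added after seeing the data, the median of the 6 genes in CMT versus IM was 0.22, and the gene past 1.5-fold in CMT versus CM became FOXO1 (0.59) in place of AKT2 (-0.55). The cause was not tested. In CMT versus IM, INSR lay between -0.04 and 0.20 over the scalings and FOXO1 between -0.21 and 0.03. AKT2 lay between -0.37 and -0.13 there, and each other scaling moved it beyond its interval. With both PIK3R1 rows summed, the PIK3R1 to PIK3CA change in CMT versus IM was -0.42. Of 129 further values for single genes and gene pairs, 117 stayed within their intervals, 12 moved beyond them and 0 changed sign past the threshold. Most of those that moved were of AKT2. Counts of pathway genes past 1.5-fold stayed within 1.5 times. Depth limits TBC1D4, PIK3CA and PIK3R1 most.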
